A study of Mus musculus with 6 samples.

Results

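The Hox genes of the mouse were followed here through the open chromatin at their 4 clusters in intestinal organoids. Of 90823 regions of open chromatin (peaks), the 77 described had their centre nearest to an annotated end of a protein-coding Hoxa, Hoxb, Hoxc or Hoxd gene, within 50 kb of it. These 77 peaks belonged to 32 of 38 Hox genes. Hoxa2, Hoxb5, Hoxb7, Hoxc13, Hoxd11 and Hoxd12 had no peak assigned to them. The Hoxa genes described (chr6:52162417-52260880, build mm10) held 27 of the peaks, Hoxb (chr11:96194316-96368254) 19, Hoxc (chr15:102921131-103036856) 18 and Hoxd (chr2:74668225-74765142) 13. The rule used position and gene names, not signal, and a peak may act on a gene other than its nearest.

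Hox genes encode homeodomain transcription factors that give cells their position along the head-to-tail axis. They lie in clusters in the order in which they act, with low numbers (paralogue groups) anterior and high numbers posterior, and genes of the same number in different clusters are related copies. Polycomb complexes keep silent Hox genes closed, retinoic acid opens the low-numbered end in the embryo, and in the gut the clusters are associated with regional identity.

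The assay was ATAC-seq, in which a transposase cuts accessible DNA, on intestinal epithelial cells sorted from organoids grown from mouse crypts. For 3 days the cultures were given vehicle, AA (arachidonic acid, the fatty acid from which prostaglandins are made) at 25 µM, or PGE2 (prostaglandin E2) at 50 nM, with 2 libraries per group. All groups shared a medium with EGF, Noggin, R-spondin and the GSK3 inhibitor CHIR-99021, which activates Wnt signalling. The design text names a dimethyl PGE2 analogue where the protocol names PGE2. No strain, genotype, age or gut segment is named, and nothing states that the 2 libraries of a group were separate cultures, so p-values measure only the spread between these libraries, which may be technical.

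RefSeq (GRCm38.p6) gave 24 start sites of 22 Hox genes, and 9 of them, each of a different gene, lay under a peak. The 250 bases before the start are shown for 4 genes whose start peak changed, 3 of them called with PGE2 and not with AA and 1, Hoxd4, with both treatments. Each runs 5′ to 3′ on the gene's strand. Capitals mark matches, on either strand, to the GC box GGGCGG, the cAMP response core TGACG, the nuclear receptor motif AGGTCA or the caudal and posterior HOX motif TTTATNG.
Hoxd9 (chr2:74697513-74697762, plus strand): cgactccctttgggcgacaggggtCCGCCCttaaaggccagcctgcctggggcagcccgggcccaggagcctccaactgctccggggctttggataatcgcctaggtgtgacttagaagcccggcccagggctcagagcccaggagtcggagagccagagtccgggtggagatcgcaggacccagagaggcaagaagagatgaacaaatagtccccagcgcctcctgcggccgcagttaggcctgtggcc
Hoxd1 (chr2:74762730-74762979, plus strand): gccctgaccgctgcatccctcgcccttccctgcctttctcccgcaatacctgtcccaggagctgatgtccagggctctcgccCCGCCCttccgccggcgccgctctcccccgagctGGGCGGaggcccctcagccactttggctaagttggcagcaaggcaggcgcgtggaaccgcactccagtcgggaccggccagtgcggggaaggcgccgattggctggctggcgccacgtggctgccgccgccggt
Hoxa5 (chr6:52204588-52204837, minus strand): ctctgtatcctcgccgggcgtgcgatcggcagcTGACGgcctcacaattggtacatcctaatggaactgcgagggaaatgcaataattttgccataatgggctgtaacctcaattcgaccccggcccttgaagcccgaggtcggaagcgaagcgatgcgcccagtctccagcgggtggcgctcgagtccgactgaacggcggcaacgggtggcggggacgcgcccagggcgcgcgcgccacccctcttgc
Hoxd4 (chr2:74721728-74721977, plus strand): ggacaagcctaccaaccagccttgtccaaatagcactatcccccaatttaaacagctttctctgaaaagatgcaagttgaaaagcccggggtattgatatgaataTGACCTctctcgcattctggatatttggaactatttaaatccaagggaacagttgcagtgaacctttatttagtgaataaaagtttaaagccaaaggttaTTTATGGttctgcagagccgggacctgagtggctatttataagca

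The windows of Hoxd9, Hoxd1 and Hoxa5 were GC-rich, at 65.2%, 71.6% and 63.6% G and C with 13, 24 and 28 CpG sites. The Hoxd4 window had 40.4% and 3. The start peaks reached 55, 130 and 34 bases into the first 3 windows and covered all 250 bases of the Hoxd4 window. The marked matches of Hoxd9 and Hoxa5 and the first of Hoxd1 therefore lay outside the start peak. The second match of Hoxd1 lay across the edge of its peak. Over the 24 Hox windows, the median number of CpG sites was 12.5, against 6 over all 32851 promoter windows of that length. TGACG was found in 29.2% of the Hox windows and 17.8% of all, AGGTCA in 25% and 14%, GGGCGG in 41.7% and 32.7%, and TTTATNG in 8.33% and 9.81%. For the other motifs searched, TGATTNA of PBX and HOX was found in 16.7% and 9.11%, TAATTA of homeodomains in 8.33% and 4.84%, and TGANTCA of AP-1 in 4.17% and 6.75%. The Hox windows include 2 starts each of Hoxa10 and Hoxd11. A match is a run of letters and not a shown binding site.

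In vehicle the Hox peaks were mostly weak. Their median was 2.87 CPM (counts scaled by library size), with a range of 0.421 to 18.2, against 4.62 over all peaks. Of the 77, 24 lay above the median of all peaks, and the highest stood at the 81.5th percentile. They were also short, at a median of 471 bp against 547 bp, and per kb of peak the medians were 5.27 and 8.51 CPM. Peaks within 1 kb of a gene end, called gene-end peaks here because starts and transcript ends both fall there, were 30 of the 77 (39.0%, against 16.1% of all peaks), and 45 lay inside a gene body.

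Median signal per peak stood highest in the Hoxa cluster and in the middle of the gene series. The cluster medians were 3.13 CPM for Hoxa, 2.41 for Hoxb, 2.77 for Hoxc and 1.64 for Hoxd. Per kb of peak they were 5.97, 5.96, 4.74 and 4.17 in that order, so that Hoxa and Hoxb were alike. Within the cluster spans there was 1 peak per 3.94 kb in Hoxa, 10.87 kb in Hoxb, 6.43 kb in Hoxc and 7.46 kb in Hoxd. Peaks of paralogue groups 4 to 8 had a median of 4.97 CPM, those of groups 1 to 3 of 3.25 and those of groups 9 to 13 of 1.68. Per kb these medians were 7.36, 4.64 and 4.52. The strongest peak in vehicle lay 678 bp from an end of Hoxa5, a regulator of gut and lung patterning (chr6:52200707-52201444), with 17.3 and 19.1 CPM in the vehicle libraries, 16.5 and 16.6 in AA, and 17.9 and 18.4 in PGE2. The Hoxa13 peak at chr6:52270603-52271303, beyond the posterior end of the cluster, had 18.1 and 16.6, 19.1 and 16.4, and 17.6 and 19.1. Neither of these strong peaks passed a test between groups. Too low to be tested were a Hoxa11 peak at chr6:52248725-52248929, with 0 counts in AA replicate 2, a Hoxc11 peak at chr15:102949756-102949936 and a Hoxd10 peak at chr2:74692707-74692937. The other 74 were tested.

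**Figure D1:**
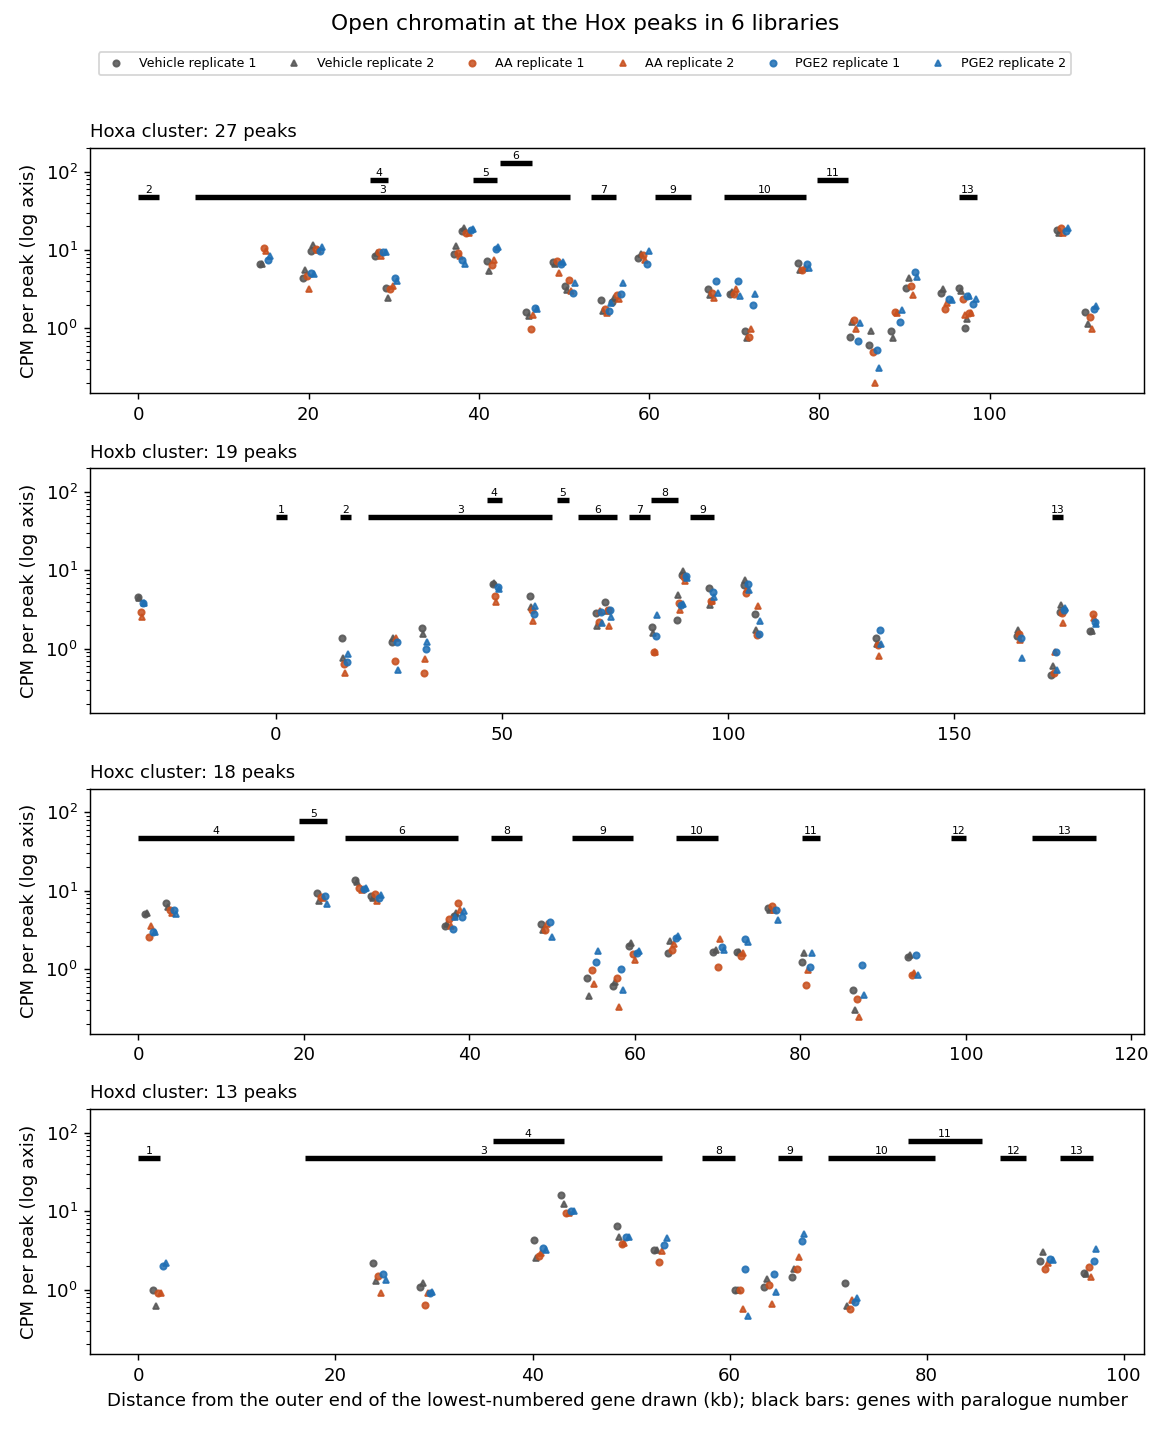
CPM (log axis) of each of the 77 Hox peaks in each of the 6 libraries, against the distance in kb from the outer end of the lowest-numbered gene drawn; circles and triangles are replicates 1 and 2, black bars are genes with their paralogue number, and the single value of 0 (Hoxa11) is drawn at the foot of the axis. Hoxa holds the densest row of peaks, and the peaks of paralogue groups 9 to 13 (median 1.68 CPM) lie below those of groups 4 to 8 (4.97).

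By mean, the summed signal of each cluster was lowest with AA, but AA lay below all other libraries only in Hoxb and Hoxd. The 27 Hoxa peaks summed to 137 and 140 CPM in vehicle, 140 and 128 in AA, and 145 and 152 in PGE2, so that PGE2 lay above vehicle and AA overlapped it. The 19 Hoxb peaks summed to 63.4 and 61.2, 50.5 and 48.8, and 58.3 and 55.2, below vehicle in both treated groups. The 18 Hoxc peaks summed to 73.4 and 70.2, 67.1 and 63.6, and 67.8 and 64.7, also below vehicle in both. The 13 Hoxd peaks summed to 42.8 and 35.5, 29.6 and 30.4, and 39.5 and 39.9, so that AA lay below vehicle and PGE2 within its range. All 77 together came to 316 and 306, 288 and 271, and 310 and 312, with AA below all other libraries and PGE2 within the range of vehicle. These sums were not tested and are given as a description. In such bulk libraries fewer cells with an open region and less opening per cell cannot be told apart.

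**Figure D2:**
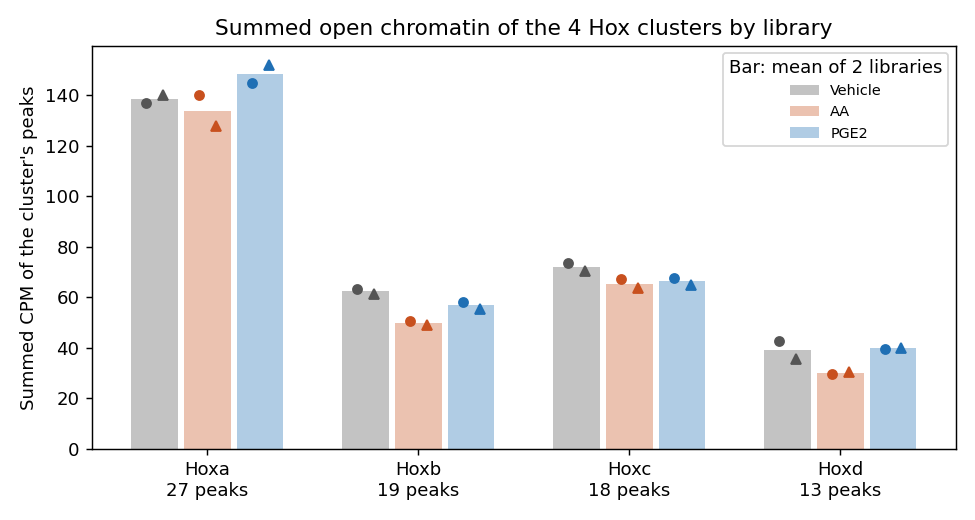
Summed CPM of the peaks of each Hox cluster in vehicle, AA and PGE2; bars are the mean of 2 libraries and points the libraries (circle replicate 1, triangle replicate 2). Hoxa lies highest with PGE2, at 145 and 152 CPM against 137 and 140 in vehicle, and Hoxb lies lowest with AA, at 48.8 and 50.5.

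The first comparison, AA against vehicle, asks what the fatty acid does to the clusters. Single peaks of Hoxa13, Hoxb, Hoxc and Hoxd genes fell, while 1 peak inside Hoxa3 rose. In all, 1 of the 74 tested peaks was higher and 8 were lower (12.2%; edgeR quasi-likelihood test, Benjamini-Hochberg adjusted p under 0.05 over all tested peaks). The same test called 30.5% of all 89347 tested peaks, 16.7% higher and 13.8% lower. The Hox peaks held fewer counts than others (a median of 30 to 37 per library, against 57 to 66 over all peaks), and the median standard error (SE) of their log2 changes was 0.25, against 0.19. Their median log2 change was -0.17, beside -0.02 over all peaks. An unadjusted p under 0.05 was found at 15 of the 74, beside 35946 of all 89347 tested peaks. By cluster, Hoxa had 1 higher and 1 lower of 26, Hoxb 0 and 3 of 19, Hoxc 0 and 2 of 17 and Hoxd 0 and 2 of 12. By paralogue group, the counts were 1 and 3 of 12 for groups 1 to 3, 0 and 4 of 27 for groups 4 to 8 and 0 and 1 of 35 for groups 9 to 13. DESeq2 called 0 in either direction, beside 10.3% of all peaks to which it gave an adjusted p. With 1 library left out, edgeR called fewest lower Hox peaks without vehicle replicate 1, then without AA replicate 2. Those fits also called fewer over all peaks.

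Hoxa3, which patterns pharyngeal arch organs, had 1 of 3 peaks higher. It lay inside the gene (chr6:52176997-52177589), with 6.66 and 6.64 CPM in vehicle, 10.6 and 9.79 in AA, and 7.48 and 8.26 in PGE2, a 1.53-fold rise with AA (log2 0.62, SE 0.14; adjusted p = 5.06e-04). Both AA libraries lay above all others. DESeq2 did not call it (adjusted p = 0.0635), and each fit that left out a library did. The next peaks along the cluster did not pass: the 4 at Hoxa4 had log2 changes of -0.33 to 0.20 with AA.

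In the Hoxb cluster the 3 peaks called lower with AA were at anterior genes, Hoxb1, Hoxb3 and Hoxb4. That set depends on the threshold. A Hoxb8 peak (chr11:96284217-96284871; log2 -0.95, SE 0.38; edgeR adjusted p = 0.0534) and a second Hoxb3 peak (log2 -0.57, SE 0.23; adjusted p = 0.0527) just missed it. With library totals 5 Hoxb peaks were lower. Of the 19 Hoxb peaks, 15 had log2 changes below 0 and 4 above. Hoxb4 is known for its use in expanding blood stem cells, and its peak inside the gene (chr11:96319158-96320081) had 6.74 and 6.87 CPM in vehicle, 4.71 and 4 in AA, and 6.18 and 5.79 in PGE2. The AA libraries lay below all others, and the peak fell 1.55-fold (log2 -0.63, SE 0.17; adjusted p = 0.00308). A short peak inside Hoxb3 (chr11:96335336-96335524) went from 24 and 20 counts in vehicle to 7 and 9 with AA (log2 -1.46, SE 0.43; adjusted p = 0.00817), with 13 and 16 counts with PGE2. A peak 29800 bp from Hoxb1, a hindbrain patterning gene, had 4.59 and 4.42 CPM in vehicle and 2.96 and 2.53 with AA (chr11:96397845-96398264, log2 -0.71, SE 0.21; adjusted p = 0.00749). The Hoxb4 call was lost without AA replicate 2, the Hoxb3 call without vehicle replicate 1 or AA replicate 1, and the Hoxb1 call without vehicle replicate 1 or AA replicate 2. With PGE2 these 3 called peaks had log2 changes of -0.18, -0.59 and -0.22, none called. The direct difference between AA and PGE2 passed at none of them (adjusted p = 0.0921 for Hoxb4, 0.266 for Hoxb3 and 0.151 for Hoxb1).

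At Hoxd4, an anterior gene controlled by retinoic acid in the hindbrain, the peak over the start (chr2:74721043-74722155) had 15.9 and 12.5 CPM in vehicle, 9.57 and 9.54 in AA, and 10.2 and 10 in PGE2. Both treated groups lay below both vehicle libraries, and AA lowered it 1.49-fold (log2 -0.57, SE 0.12; adjusted p = 3.60e-04). This is the peak over the printed window with few CpG sites. A peak inside Hoxd3 fell by log2 -0.53 (chr2:74715758-74716199, SE 0.19; adjusted p = 0.0261), from 6.43 and 4.73 to 3.8 and 3.92 CPM. Without vehicle replicate 1, which was the higher of the pair at both peaks, neither passed (adjusted p = 0.0657 for Hoxd4). The Hoxd3 call was also lost without either AA library.

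At Hoxc4 a peak inside the gene (chr15:103035232-103035689) had 5.05 and 5.19 CPM in vehicle, 2.6 and 3.59 in AA, and 2.98 and 3.01 in PGE2, a fall of 1.67-fold with AA (log2 -0.74, SE 0.20; adjusted p = 0.00378; not called without AA replicate 1). At Hoxc6, a gene of trunk patterning, the strongest Hoxc peak (chr15:103009684-103010337) had 13.6 and 13, 10.9 and 10.1, and 10.7 and 10.8 CPM. It fell by log2 -0.34 with AA (SE 0.12; adjusted p = 0.0263), a call lost when any vehicle or AA library was left out. In the Hoxa13 gene, a posterior gene of limb and hindgut, a gene-end peak fell by log2 -0.67 (chr6:52259081-52259688, SE 0.26; adjusted p = 0.0432), with 43 and 39 counts in vehicle and 34 and 18 with AA. That call was lost without either vehicle library or without AA replicate 2. It was the only call with AA among the 35 tested peaks of paralogue groups 9 to 13. Another peak beside Hoxa13 (chr6:52257077-52257547) just missed the threshold (log2 -0.64, SE 0.26; edgeR adjusted p = 0.0510). Of the 35, 22 had log2 changes below 0 and 13 above.

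**Figure D3:**
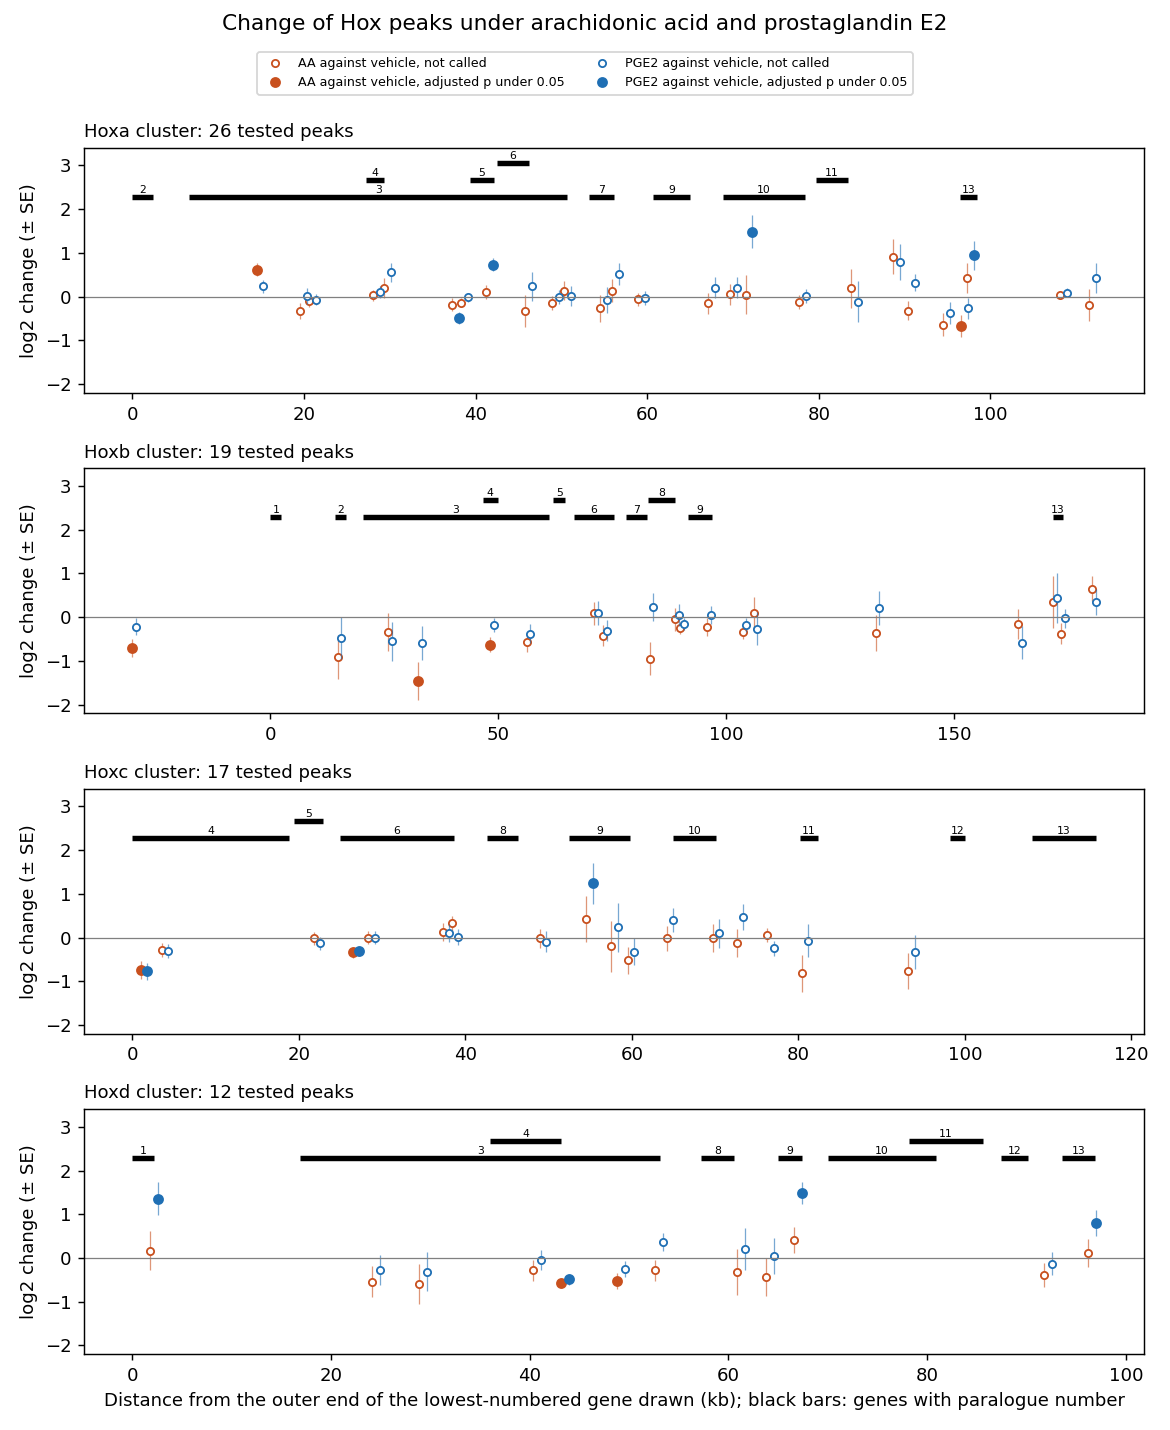
log2 change against vehicle (y axis, ± SE) of the 74 tested Hox peaks with AA (orange) and PGE2 (blue), against the distance in kb from the outer end of the lowest-numbered gene drawn; filled points passed the test (adjusted p under 0.05). AA raises 1 peak, inside Hoxa3, 3 Hoxb peaks were called lower with AA and not with PGE2, and single peaks were called higher with PGE2 and not with AA at Hoxa5, Hoxa10, Hoxa13, Hoxc9, Hoxd1, Hoxd9 and Hoxd13.

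The second comparison asks what the prostaglandin does. PGE2 raised single peaks at Hoxa5, Hoxa10, Hoxa13, Hoxc9, Hoxd1, Hoxd9 and Hoxd13 and lowered 4 peaks at Hoxa5, Hoxc4, Hoxc6 and Hoxd4. Of the 74 tested peaks, 7 were higher and 4 lower (14.9%; edgeR, adjusted p under 0.05), while over all tested peaks 24.9% were called, 14.3% higher and 10.6% lower. The median log2 change was 0.00, beside -0.00 over all peaks. An unadjusted p under 0.05 was found at 13 of the 74, beside 31805 of all 89347 tested peaks. By cluster, Hoxa had 3 higher and 1 lower, Hoxb 0 and 0, Hoxc 1 and 2 and Hoxd 3 and 1. None of the 19 Hoxb peaks had an unadjusted p under 0.05 with edgeR, and DESeq2 called 0 of them. By paralogue group, groups 1 to 3 had 1 higher and 0 lower, groups 4 to 8 had 1 and 4, and groups 9 to 13 had 5 and 0 of 35. The 14.3% higher in groups 9 to 13 equals the share over all tested peaks. That count was 1 without PGE2 replicate 2, 2 without either vehicle library, 3 with gene-end peaks scaled separately and 1 with DESeq2. DESeq2 called 2 higher and 0 lower, beside 10.6% of all peaks to which it gave an adjusted p. With 1 library left out, edgeR called fewest higher without vehicle replicate 2 or without PGE2 replicate 2. It called fewest lower without either vehicle library or without PGE2 replicate 2. Those fits also called fewer over all peaks. AA and PGE2 were compared with the same vehicle libraries, so their changes share that error.

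The largest changes with PGE2 were at Hoxd9 and Hoxa10. The peak over the start of Hoxd9, a gene of the lumbar and limb regions (chr2:74697708-74698674), held 19 and 24 counts in vehicle, 26 and 32 in AA, and 54 and 67 in PGE2. In CPM these were 1.45 and 1.83, 1.83 and 2.61, and 4.12 and 5.17, so that PGE2 lay above all other libraries. PGE2 raised it 2.81-fold (log2 1.49, SE 0.25; adjusted p = 9.34e-06), and the call held under each of 13 other settings, DESeq2 and the omission of each library among them. The Hoxa10 peak inside the gene (chr6:52234034-52234514), 665 bp downstream of 1 of its 2 starts, held 12 and 10 counts in vehicle, 11 and 12 in AA, and 26 and 36 in PGE2, a 2.81-fold rise (log2 1.49, SE 0.37; adjusted p = 0.00179) that did not pass without PGE2 replicate 2 (adjusted p = 0.0623). The other 3 peaks of Hoxa10, known in the uterus and the posterior body, did not pass.

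Over the start of Hoxd1, an anterior gene active in sensory neurons, the peak (chr2:74762850-74763119) held 13 and 8 counts in vehicle, 13 and 11 in AA, and 26 and 28 in PGE2. It rose 2.56-fold with PGE2 (log2 1.36, SE 0.38; adjusted p = 0.00661; 0.105 without vehicle replicate 2). Over the start of Hoxa5 the peak (chr6:52203448-52204621) had 7.27 and 5.42 CPM in vehicle, 6.4 and 7.34 in AA, and 10.2 and 10.9 in PGE2. Vehicle and AA overlapped and PGE2 lay above both, a 1.66-fold rise (log2 0.73, SE 0.15; adjusted p = 1.36e-04) that also held under each of 13 other settings. A second Hoxa5 peak, 1641 bp from the other end of the gene and inside Hoxa3 as annotated (chr6:52199932-52200294), went the other way, from 8.81 and 11.1 CPM to 7.55 and 6.64 (log2 -0.48, SE 0.14; adjusted p = 0.00896; not called without vehicle replicate 2 or PGE2 replicate 2). The strongest Hoxa5 peak, which lies between these, had a log2 change of -0.01 with PGE2.

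Just inside the start of Hoxd13, the posterior-most Hoxd gene and a regulator of digits and hindgut, the peak (chr2:74668256-74668892) held 21 and 21 counts in vehicle and 30 and 43 with PGE2 (log2 0.80, SE 0.29; adjusted p = 0.0346). A gene-end peak of Hoxa13, 741 bp inside the start (chr6:52259944-52260334), held 13 and 17 counts in vehicle and 27 and 31 with PGE2 (log2 0.95, SE 0.33; adjusted p = 0.0279). A peak inside Hoxc9 (chr15:102981824-102982125) held 10 and 6 counts in vehicle and 16 and 22 with PGE2 (log2 1.24, SE 0.47; adjusted p = 0.0442). These 3 calls rest on few counts, and the direct difference between AA and PGE2 did not pass at any of the 3 (adjusted p = 0.116, 0.312 and 0.259 in that order). Each was lost without either vehicle library or without PGE2 replicate 2, the Hoxc9 call also without AA replicate 1, and the first 2 also when gene-end and other peaks were scaled separately. Of the 30 gene-end Hox peaks, 5 were higher with PGE2 and 1 lower, or 16.7% and 3.33%, where all gene-end peaks had 32.1% and 5.33%. With separate scaling 3 were higher.

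The peaks called with both treatments were 3, all lower, at Hoxc4, Hoxc6 and Hoxd4. None was called in opposite directions, and 17 were called with at least 1 treatment. Such joint calls were not counted over all peaks, so these counts have no share to stand beside. Both comparisons also use the same vehicle libraries. The Hoxd4 start peak fell 1.4-fold with PGE2 (log2 -0.49, SE 0.12; adjusted p = 0.00243; not called without vehicle replicate 1), and the Hoxc4 peak 1.71-fold (log2 -0.77, SE 0.20; adjusted p = 0.00342). The Hoxc6 peak, at log2 -0.31 (SE 0.12), only just passed, and did not pass in any fit that left out a library.

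**Figure D4:**
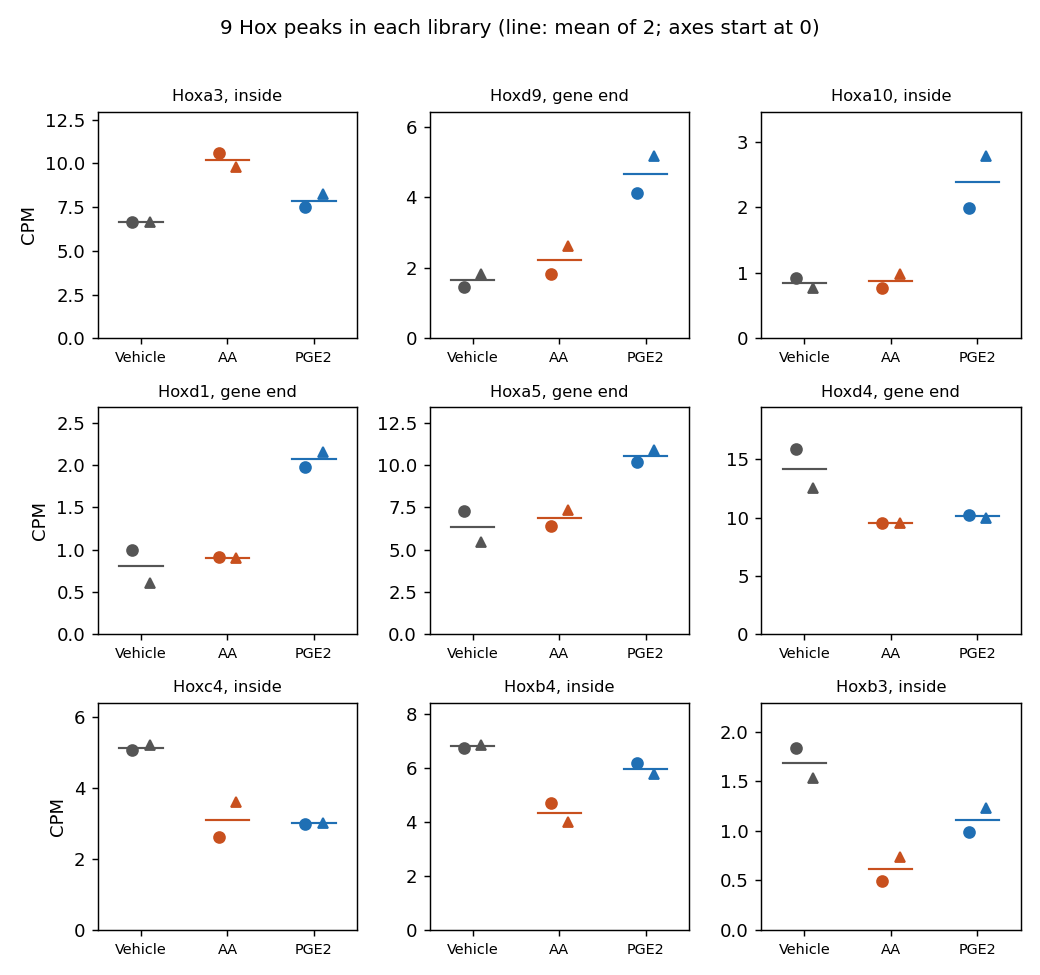
CPM per library of 9 Hox peaks in vehicle, AA and PGE2 (circle replicate 1, triangle replicate 2, line mean of 2; each y axis starts at 0); "gene end" is within 1 kb of an annotated end. The Hoxa3 peak is highest with AA, the Hoxd9, Hoxa10, Hoxd1 and Hoxa5 peaks are higher with PGE2 alone, Hoxd4 and Hoxc4 are lower with both treatments, and Hoxb4 and Hoxb3 are lowest with AA.

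AA and PGE2 were also compared directly, which tests where the treatments differ. Of the 74 tested Hox peaks 6 were lower with AA than with PGE2 and 0 higher (8.11%), where 9.95% of all tested peaks were called, 5.06% higher and 4.88% lower. At an unadjusted p under 0.05 edgeR had 12 Hox peaks, beside 20969 of all 89347 tested peaks. DESeq2 called 0 Hox peaks in either direction, beside 1.61% of all peaks to which it gave an adjusted p. The median log2 difference was -0.22, with 56 of the 74 below 0, beside a median of -0.01 and 45823 of 89347 over all tested peaks. Among gene-end peaks, 25 of 30 Hox peaks and 10132 of all 14457 were below 0. Beyond 1 kb the counts were 31 of 44 and 35691 of 74890. Medians of the other gene lists described below ran from -0.21 (TALE-class cofactors) to 0.09 (caudal and ParaHox genes). All 12 tested Hoxd peaks were below 0. The 6 peaks were the start peaks of Hoxd9 (log2 -1.08, SE 0.23; adjusted p = 0.00154), Hoxa5 (-0.62, SE 0.14; adjusted p = 0.00284) and Hoxd1 (-1.18, SE 0.37; adjusted p = 0.0334), the Hoxa10 peak (-1.44, SE 0.36; adjusted p = 0.00667), a peak beside Hoxa13 (chr6:52252572-52253948; -0.64, SE 0.21; adjusted p = 0.0386) and a gene-end peak of Hoxb8 (chr11:96284217-96284871; -1.18, SE 0.37; adjusted p = 0.0311). The Hoxb8 peak had 13 and 11 counts with AA and 19 and 35 with PGE2, and its call was lost without either AA library or without PGE2 replicate 2. Without AA replicate 1, 0 of the 6 passed, and 3 passed without AA replicate 2 or without PGE2 replicate 2. Those fits also called fewer over all peaks. Of the 30 gene-end Hox peaks 4 (13.3%) were lower with AA than with PGE2, beside 16.7% of all gene-end peaks.

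At the peaks that both treatments lowered, no difference between AA and PGE2 passed. The Hoxd4 start peak differed by log2 -0.08 (SE 0.13; adjusted p = 0.767), the Hoxc4 peak by 0.03 (SE 0.23; adjusted p = 0.952) and the Hoxc6 peak by -0.03 (SE 0.12; adjusted p = 0.923). The Hoxa3 peak that rose with AA differed by 0.37 (SE 0.13; adjusted p = 0.0644).

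Some Hox genes showed no called peak in any comparison although they had several. These were Hoxa4 (4 peaks), Hoxb9 (5), Hoxb13 (4), Hoxc10 (3) and, with fewer, Hoxa6, Hoxa7, Hoxa9, Hoxb2, Hoxb6, Hoxc5, Hoxc8, Hoxc12 and Hoxd8. The highest Hoxb peak, nearest to Hoxb9 (chr11:96277617-96278255), had 8.73 and 9.69 CPM in vehicle, 8.16 and 7.42 in AA, and 8.55 and 8.02 in PGE2. The smallest p of any Hoxc peak between AA and PGE2 belonged to a Hoxc10 peak (chr15:102963738-102964010, log2 -0.59; adjusted p = 0.213). Hoxa11 and Hoxc11 likewise had no call among the 2 tested peaks each.

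The clusters also hold genes of small regulatory RNAs, and the mature sequences of the miR-10 and miR-196 families are shown because members lie in different clusters with the same seed (bases 2 to 8, in capitals).
miR-10a-5p: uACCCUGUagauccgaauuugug
miR-10b-5p: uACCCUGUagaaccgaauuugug
miR-196a-5p: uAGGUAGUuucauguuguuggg
miR-196b-5p: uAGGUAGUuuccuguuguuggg
The gene of miR-10a lies 1884 bp from the Hoxb4 peak that fell with AA, and that of miR-10b 1572 bp from a Hoxd4 peak with a log2 change of -0.28 with AA (adjusted p = 0.396) and -0.04 with PGE2. The gene of miR-196b lies under a Hoxa10 peak (chr6:52229628-52230247) with log2 changes of -0.15 and 0.21, which did not pass. The 2 genes of miR-196a lie 391 bp from a Hoxb9 peak and 788 bp from a Hoxc10 peak, neither called. ATAC-seq measures no RNA, so the level of these RNAs is not known from it.

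Genes that work with or on the Hox clusters were counted in the same fit, and their counts stand beside shares over all tested peaks of 16.7% higher and 13.8% lower with AA and 14.3% and 10.6% with PGE2. Of 108 tested peaks at Polycomb genes, 17 were higher and 9 lower with AA and 22 and 7 with PGE2, where the gene-end peaks of Suz12 (log2 0.83, SE 0.09) and Ezh1 (log2 0.87, SE 0.11), both of the repressive complex PRC2, rose, as did 32.1% of all gene-end peaks. At Eed, also of PRC2, 0 of 11 peaks were higher and 3 lower with PGE2. The 39 peaks of trithorax and histone demethylase genes had 5 and 5 in AA, and 9 and 4 in PGE2. The TALE-class cofactors, which bind DNA together with HOX proteins, had 4 and 9 of 48 in AA, and 3 and 3 in PGE2, with a gene-end peak of Meis1 lower with AA (log2 -0.76, SE 0.18). The 87 peaks of the retinoic acid axis had 9 and 12 in AA, and 7 and 11 in PGE2, and at Rarb, a retinoic acid receptor, 2 of 8 peaks rose and 1 fell with AA, the last by log2 -0.93 (SE 0.17). The 22 peaks of caudal and ParaHox genes had 6 and 2 in AA, and 2 and 0 in PGE2, with AA 4 of the higher peaks at Pdx1 and 2 at Cdx2, and both lower peaks at Cdx1. Cdx1 and Cdx2 are regulators of posterior Hox genes. CTCF and cohesin genes had 3 and 4 of 43, and 5 and 4. Genes next to the Hox clusters had 21 and 8 of 105, and 16 and 7; at Skap2, a neighbour of the Hoxa cluster, 0 of 6 peaks were called with AA and 1 was higher with PGE2. Other gut homeobox genes had 11 and 12 of 79, and 8 and 9.

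Library totals were 12374232 to 14236985 counts, of which Hox peaks took 0.0268% to 0.0322%. Epithelial markers had peaks at 12 of 12 genes and summed to 3442 to 3650 CPM. Markers of other cell types were 10 of 12 fibroblast and muscle genes (158 to 171 CPM; Col1a2 and Col3a1 without a peak), 6 of 10 immune genes (108 to 121), 8 of 8 endothelial genes (449 to 461) and 7 of 8 neuron and glia genes (72.7 to 82.4). An open region near a marker need not mean that the gene is used. The fibroblast and muscle sum, 171 and 170 in vehicle, was 164 and 160 in AA, and 161 and 158 in PGE2, beside falling Hox peaks of Hoxb and Hoxc, and its part in them was not tested.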

How the data were processed

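The deposited table gives raw counts per consensus peak, made by the authors. featureCounts 1.6.3, per the file headers, reduced reads to their 5′ end, ignored strand and allowed a pair to count in several overlapping peaks. Trim Galore, BWA, Picard, SAMtools, MACS2 and build mm10 are named per the submitters' processing notes. Whether reads were shifted for the transposase offset is not given in the sources used here.

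Peaks were assigned to the protein-coding gene (RefSeq, GRCm38.p6) with the nearest end within 50 kb; that table gives no strand, so strands come from the RefSeq promoter table (22 of 38 Hox genes). edgeR 4.0.16 (R 4.3.3; quasi-likelihood, robust, TMM, filterByExpr) fitted all 6 libraries over 89347 peaks with group as term. Each peak had 3 residual degrees of freedom, against a median of 42.3 prior ones drawn from all tested peaks. Adjusted p-values are Benjamini-Hochberg over all tested peaks, called under 0.05. SE is the log2 change divided by the root of F. DESeq2 1.42.0, other scalings, no filter, a replicate block, narrower assignment and omission of each library were alternatives. The fit was also run on simulated counts with the same dispersion set for every peak. That checks the calculation, not its error rates in these data.

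Peaks were named by a fixed rule: per cluster the 3 highest in vehicle and the lowest; per comparison and direction the 8 largest called changes, 1 per gene, if the mean log2 CPM was not below 0; called gene-end peaks; and per cluster and comparison the smallest p. Hox genes without a call were added after their values were seen. The peaks of 1 Hox gene stayed in the fit and are not reported here. Members and lists were chosen with earlier results of these data known.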

Additional observations from a re-analysis of the deposited data

How the results depend on the processing

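Of 26 called values of named Hox peaks, 2 held under all 13 alternative fits: Hoxd9 and the Hoxa5 start peak, both with PGE2. No called value changed sign, though some uncalled ones did; over all named values and fits 74 lost a call, 13 gained one and 1053 stayed on the same side of the threshold. How many calls over all peaks held under every fit was not counted, so the 2 of 26 has no share to stand beside. DESeq2 called 0 Hox peaks higher and 0 lower with AA, 2 and 0 with PGE2, and 0 lower between AA and PGE2. Of all peaks to which it gave an adjusted p, it called 10.3%, 10.6% and 1.61% in these comparisons. For 4 of the 7 peaks higher with PGE2 and 5 of the 6 lower with AA than PGE2 it gave no adjusted p. With each library left out in turn, 1 peak was higher and 2 to 11 were lower with AA (2 without vehicle replicate 1, 3 without AA replicate 2), 3 to 7 were higher and 2 to 3 lower with PGE2 (3 higher without vehicle replicate 2 or PGE2 replicate 2; 2 lower without either vehicle replicate or PGE2 replicate 2), and 0 were higher and 0 to 6 lower between AA and PGE2. The number called over all peaks also moved with the library left out. In these fits the lone library of a group is assumed to vary like the others. The summed CPM (means 311, 279 and 311 for vehicle, AA and PGE2) became 285, 256 and 284 within 10 kb and 283, 252 and 282 inside the spans, since fewer peaks enter, and 317, 278 and 307 with library totals. Library totals moved the median of all peaks by under 0.1 and turned the larger side over all peaks (13725 higher and 14324 lower with AA, 11526 and 12127 with PGE2); the Hox counts were then 1 and 11, and 7 and 4. With a replicate block the counts were 1 higher and 9 lower with AA, 7 and 3 with PGE2, and 0 and 6; same-numbered libraries did not deviate together (r = 0.00, -0.03 and 0.04), so the numbers were not taken as pairs. Peaks with few counts limit precision: Hox peaks had a median SE of 0.25 with AA.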
